A study of Saccharomyces cerevisiae with 18 samples.

Results

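The proteasome genes of Saccharomyces cerevisiae, budding yeast, were followed through 18 RNA-seq libraries from 3 strains that were engineered to produce diosgenin, a plant steroidal sapogenin. The set was chosen as a list of 34 gene identifiers, which is 34 of the 6600 genes in the count tables. It holds 10 genes for the base and 8 genes for the lid of the regulatory particle, 7 genes for the alpha ring and 7 genes for the beta ring of the core particle, the transcription factor gene RPN4 (YDL020C) and the maturation factor gene UMP1 (YBR173C). The strains were LP118, LP104-17 and LP085-Vc, all derived from the laboratory strain BY4742, and the labels name the strains without their introduced genes or deletions. Each strain was grown in flasks in SD medium with 2% glucose and sampled at 24 h and at 6 h, with 3 libraries for each of the 6 groups. The labels leave unsaid if replicate libraries are separate cultures. The p-values therefore measure variation among the sequenced samples only, and part or all of it may be technical.

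The proteasome is the protease that degrades ubiquitin-tagged proteins in the cytosol and nucleus. Its core particle is a stack of alpha and beta rings with the active sites inside, and its regulatory particle binds the tagged protein, removes the ubiquitin, unfolds the chain and feeds it into the core. In budding yeast most subunit genes share a promoter element known as PACE, which the activator Rpn4 binds, and Rpn4 is itself a short-lived substrate of the proteasome. Rpn4 level and proteasome capacity are thereby linked in a feedback loop.

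All 34 members passed the filter on low counts, among 6131 tested genes. Library totals were 5117869 to 7548113 counts, and the members together took 0.879 ± 0.024% of the counts in LP118 at 24 h and 1.07 ± 0.03% at 6 h (SD, n = 3 each). Their share was 0.968 ± 0.027% and 1.20 ± 0.08% in LP104-17 and 1.03 ± 0.01% and 1.23 ± 0.04% in LP085-Vc, at 24 h and 6 h in that order. The alpha mating type of BY4742 matched its markers. STE3, the receptor gene of alpha cells, had group means of 91.4 to 184 CPM (counts scaled to the library total times its TMM factor). The group means of STE2, the receptor gene of a cells, were 7.59 to 11.4 CPM. The markers of the strains differed: URA3, which BY4742 lacks, had group means of 426 to 704 CPM in LP118, 0 to 0.0446 CPM in LP104-17 and 204 to 411 CPM in LP085-Vc. In bulk RNA a lower level per cell and a smaller share of cells that express a gene cannot be told apart.

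The promoter element was looked up first, because it is the sequence the subunit genes have in common. The letters GGTGGCAAA were searched on both strands in the 300 bases before each start codon of the R64 genome (RefSeq annotation). An exact match stood before 27 of the 34 members (79.4%), against 72 of 5897 promoters in all (1.22%), and these 27 are among the 72. With 1 mismatch allowed, 32 of the 34 members had a match, against 462 promoters (7.83%). No member had more than 1 exact match. The 27 matches lay 75 to 174 bases before the start codon, with a median of 111 bases, and 19 of them were on the strand of the gene. RPN10, RPN13, RPN8, PRE5 and PUP1 had a match only with the mismatch, and RPN4 and UMP1 had none of either kind in this window. The matches of the 4 subunit genes on chromosomes V and IX are shown with 10 bases on either side, together with those of RPT6 and PRE6, whose transcripts had the deepest falls with time, since the results below turn on these genes. Capitals mark the element, written in its own direction.
RPN3, chrV:196843-196871, minus strand, 86 bases before the start codon: ctctttcttgGGTGGCAAAtgtttttcgt
PUP3, chrV:349511-349539, minus strand, 174 bases before the start codon: tggcactgccGGTGGCAAAaaagtgcaaa
PRE1, chrV:177683-177711, plus strand, 133 bases before the start codon: aaatctttacGGTGGCAAAaaataaagaa
RPN2, chrIX:220801-220829, minus strand, 110 bases before the start codon: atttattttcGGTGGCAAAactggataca
RPT6, chrVII:411352-411380, minus strand, 75 bases before the start codon: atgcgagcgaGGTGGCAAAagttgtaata
PRE6, chrXV:255218-255246, minus strand, 100 bases before the start codon: tttcccttccGGTGGCAAAagaatcttcg
The 6 sequences share the element and little of the flanks. Among the 28 subunit genes off chromosomes V and IX, the 23 with an exact match had a median log2 fold change of -0.34 in LP118 against LP085-Vc at 24 h, and the 5 without one had -0.59. For 24 h against 6 h the medians with and without a match were -0.47 and -0.46 in LP118, -0.34 and -0.32 in LP104-17, and -0.32 and -0.18 in LP085-Vc. RPN2 and the chromosome V genes share the element and differed in opposite directions in LP118, where their chromosomes were shifted as a whole (values below). The part that the element had in any of these values was not tested.

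RPN4, the gene of the activator, moved more than any other member. In LP118 it had 116, 136 and 132 FPKM at 24 h (fragments scaled by gene length and library total, the authors' values), against 116, 96.3 and 107 FPKM at 6 h. In LP104-17 it had 335, 307 and 313 FPKM at 24 h, against 168, 162 and 172 FPKM at 6 h. In LP085-Vc it had 493, 521 and 548 FPKM at 24 h, against 171, 178 and 199 FPKM at 6 h. At 24 h the 3 strains did not overlap, with LP118 lowest and LP085-Vc highest, and at 6 h LP118 lay below both other strains.

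At 24 h RPN4 was 4.68-fold lower in LP118 than in LP085-Vc, a log2 fold change of -2.23 ± 0.08 (SE; edgeR quasi-likelihood test, adjusted p = 6.85e-15). It was 2.59-fold lower in LP118 than in LP104-17 (-1.37 ± 0.08, adjusted p = 1.91e-11) and 1.81-fold lower in LP104-17 than in LP085-Vc (-0.85 ± 0.08, adjusted p = 3.36e-08). At 6 h it was lower in LP118 by log2 fold changes of -0.73 ± 0.08 against LP085-Vc and -0.56 ± 0.08 against LP104-17, and the difference between LP104-17 and LP085-Vc, -0.17 ± 0.08, was not called (adjusted p = 0.218). Between 24 h and 6 h, RPN4 was 2.99-fold higher at 24 h in LP085-Vc (log2 1.58 ± 0.08) and 1.86-fold higher in LP104-17 (0.89 ± 0.08). In LP118 the same change was 0.08 ± 0.08 and was not called (adjusted p = 0.397). The change with time itself differed between all 3 pairs of strains, by log2 -1.50 ± 0.12 for LP118 against LP085-Vc, -0.81 ± 0.12 for LP118 against LP104-17 and -0.69 ± 0.11 for LP104-17 against LP085-Vc.

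The 28 subunit genes off chromosomes V and IX differed less across groups than RPN4 did. Their median was 237 ± 6.39 FPKM in LP118 at 24 h and 287 ± 8.37 FPKM at 6 h (SD, n = 3 each). It was 248 ± 10.4 FPKM at 24 h and 322 ± 24 FPKM at 6 h in LP104-17, and 246 ± 4.91 FPKM at 24 h and 335 ± 16 FPKM at 6 h in LP085-Vc. FPKM takes no TMM factor, and the differences between strains depended on the scale. With scaled counts, the median log2 fold change of these 28 in LP118 against LP085-Vc at 24 h was -0.35. The median of all tested genes was -0.01. By FPKM, the median of these 28 was lower in all libraries at 24 h than in all libraries at 6 h in each strain. This held also in LP104-17 and LP085-Vc, where RPN4 was higher at 24 h. A link between RPN4 and subunit levels was not tested. The highest mean over groups was 2.31 log2 units above the lowest for RPN4, and the same range had a median of 0.71 over these 28 subunits and 1.40 over all tested genes.

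**Figure D1:**
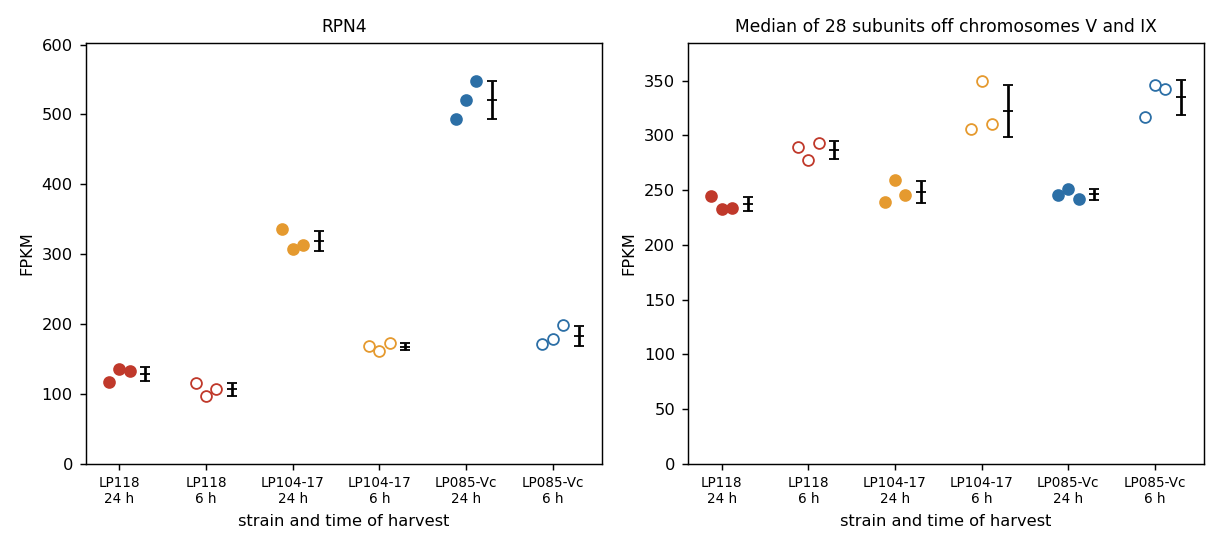
FPKM of RPN4 (left) and the median FPKM of the 28 subunit genes off chromosomes V and IX (right) in each library, by strain and time of harvest, with filled points for 24 h and open points for 6 h and the mean ± SD (n = 3) beside them. RPN4 separates the strains at 24 h, with means of 128 FPKM in LP118, 319 FPKM in LP104-17 and 521 FPKM in LP085-Vc, while the subunit medians at 24 h lie between 237 and 248 FPKM. FPKM takes no TMM factor. With scaled counts the same 28 genes had a median log2 fold change of -0.35 in LP118 against LP085-Vc at 24 h.

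UMP1 codes for a chaperone of core particle maturation that is degraded inside the finished core. It had 243, 250 and 230 FPKM at 24 h in LP118, against 278, 255 and 263 FPKM at 6 h. LP104-17 had 259, 261 and 252 FPKM at 24 h, against 270, 344 and 269 FPKM at 6 h. LP085-Vc had 183, 199 and 175 FPKM at 24 h, against 246, 295 and 302 FPKM at 6 h. At 24 h UMP1 was higher in LP104-17 than in LP085-Vc by log2 0.32 ± 0.10 (adjusted p = 0.00765), with no overlap, and it was the only member called higher in that comparison. It fell with time in all 3 strains, with log2 fold changes of -0.32 ± 0.10 in LP118, -0.23 ± 0.09 in LP104-17 and -0.52 ± 0.10 in LP085-Vc. The call in LP104-17 was lost without replicate 2 at 6 h or without any 1 of the 3 libraries at 24 h.

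Against LP085-Vc at 24 h, the transcripts of most regulatory particle subunits were lower in LP118. Of the 34 members, 20 were called lower and 3 higher, beside 39.2% lower and 38.5% higher of all tested genes, and the members' median log2 fold change was -0.36, against -0.01 for all tested genes. The 28 subunits off chromosomes V and IX had 16 called lower and 2 higher. Of the 16 regulatory particle subunits among these, 13 were lower and 1 higher, with a median of -0.42. RPN11, the deubiquitinase of the lid, had 188, 177 and 175 FPKM in LP118 against 314, 296 and 296 FPKM in LP085-Vc, a log2 fold change of -0.94 ± 0.10 (adjusted p = 3.87e-08). RPN8, its partner in the lid, was lower by -0.82 ± 0.13, the ATPase subunit gene RPT6 by -0.82 ± 0.08, and the ubiquitin receptor genes RPN13 and RPN10 by -0.80 ± 0.15 and -0.59 ± 0.07. RPT1, another ATPase of the base, was the 1 regulatory subunit off chromosomes V and IX called higher, at 0.22 ± 0.07 (adjusted p = 0.0073).

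In the core particle of the same comparison, 3 of the 12 subunits off chromosome V were lower and 1 was higher, with a median of -0.05. This stood beside 39.2% lower and 38.5% higher of all tested genes. The 3 lower subunits were SCL1, of the alpha ring (-0.53 ± 0.09), PRE2, a catalytic beta subunit (-0.41 ± 0.12), and PRE4, a beta subunit without catalytic activity of its own (-0.34 ± 0.09). PRE6, of the alpha ring, was higher by 0.27 ± 0.08 (adjusted p = 0.00644). With the deposited FPKM values in place of scaled counts, the members split into 15 lower and 7 higher, and the median of all tested genes was 0.19 higher than with scaled counts. Calls among all tested genes were 4763 with FPKM and 4762 with scaled counts. Relative to all tested genes, the members' median was -0.35 on both scales.

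At 6 h, 12 of the 34 members were called lower in LP118 than in LP085-Vc and 3 higher, beside 33.8% lower and 32.2% higher of all tested genes, so the share called lower was near the background. The members' median was -0.17, against -0.04 for all tested genes. Relative to all tested genes it was -0.13, and -0.06 with a trend over gene length removed. Off chromosomes V and IX, RPN11 was lower (-0.50 ± 0.10), as were SCL1 (-0.43 ± 0.09), RPN10 (-0.32 ± 0.07) and PRE5, of the alpha ring (-0.30 ± 0.08). RPN1, a large scaffold subunit of the base, and PRE7, of the beta ring, were higher, by 0.36 ± 0.11 and 0.33 ± 0.09.

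Against LP104-17, fewer members differed in LP118 than against LP085-Vc, and so did fewer of all tested genes. Calls among all tested genes were 4208 at 24 h and 3585 at 6 h against LP104-17, and 4762 and 4048 against LP085-Vc. At 24 h, 14 members were called lower and 4 higher, beside 33.6% lower and 35.0% higher of all tested genes, with a median of -0.13 against 0.03 for all tested genes. RPT6 had 215, 192 and 199 FPKM in LP118 against 298, 355 and 326 FPKM in LP104-17, a log2 fold change of -0.75 ± 0.08 (adjusted p = 2.04e-07). PRE6 was higher by 0.48 ± 0.08 and PRE8, also of the alpha ring, by 0.34 ± 0.09. At 6 h, 7 members were lower and 4 higher, beside 29.8% lower and 28.7% higher of all tested genes, so both shares were below the background. Of these members, 3 of the lower and 1 of the higher lie on chromosomes V and IX. With FPKM the split at 6 h was 14 lower and 2 higher, and 3629 of all tested genes were called, against 3585 with scaled counts. The comparisons against LP104-17 and LP085-Vc share the LP118 libraries, so their values are not independent of each other.

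Between LP104-17 and LP085-Vc at 24 h, 16 members were called lower and 1 higher, beside 27.4% lower and 25.1% higher of all tested genes, and the members' median was -0.19 against -0.05. RPN4 was the lowest of them. Among subunits the lowest values were those of RPN13 (-0.45 ± 0.15), RPN11 (-0.40 ± 0.10), RPN12, of the lid (-0.39 ± 0.09), and PUP3, of the beta ring (-0.38 ± 0.11). The count depended on the scale: with FPKM, where the median of all tested genes was 0.14 higher, 4 members were lower and 3 higher, and with a trend over gene length removed, 28 were lower and 1 higher. Without LP104-17 replicate 2 at 24 h, the count was 14 in place of 17, and without any other 1 of the 6 libraries the count was 9 to 11. Calls among all tested genes were 2949 with FPKM and 3723 with the length trend removed, against 3222 with scaled counts. Without 1 library they were 2882 to 2986. RPN13 was not called without replicate 1 of either strain, nor PUP3 without LP085-Vc replicate 1.

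At 6 h no member was called between LP104-17 and LP085-Vc by edgeR, beside 5.79% higher and 5.76% lower of all tested genes. At an unadjusted p under 0.05 there was 1 member, which was lower, and with DESeq2 there were also no calls and 2 members at an unadjusted p under 0.05. The log2 fold changes ran from -0.27 (RPN11) to 0.06 (RPN1), and 31 of the 34 were below 0. Without LP104-17 replicate 2 at 6 h, 3 members were called, all lower, while calls among all tested genes went from 708 to 1206. That library had the highest normalised level of its group for 26 of the 34 members.

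**Figure D2:**
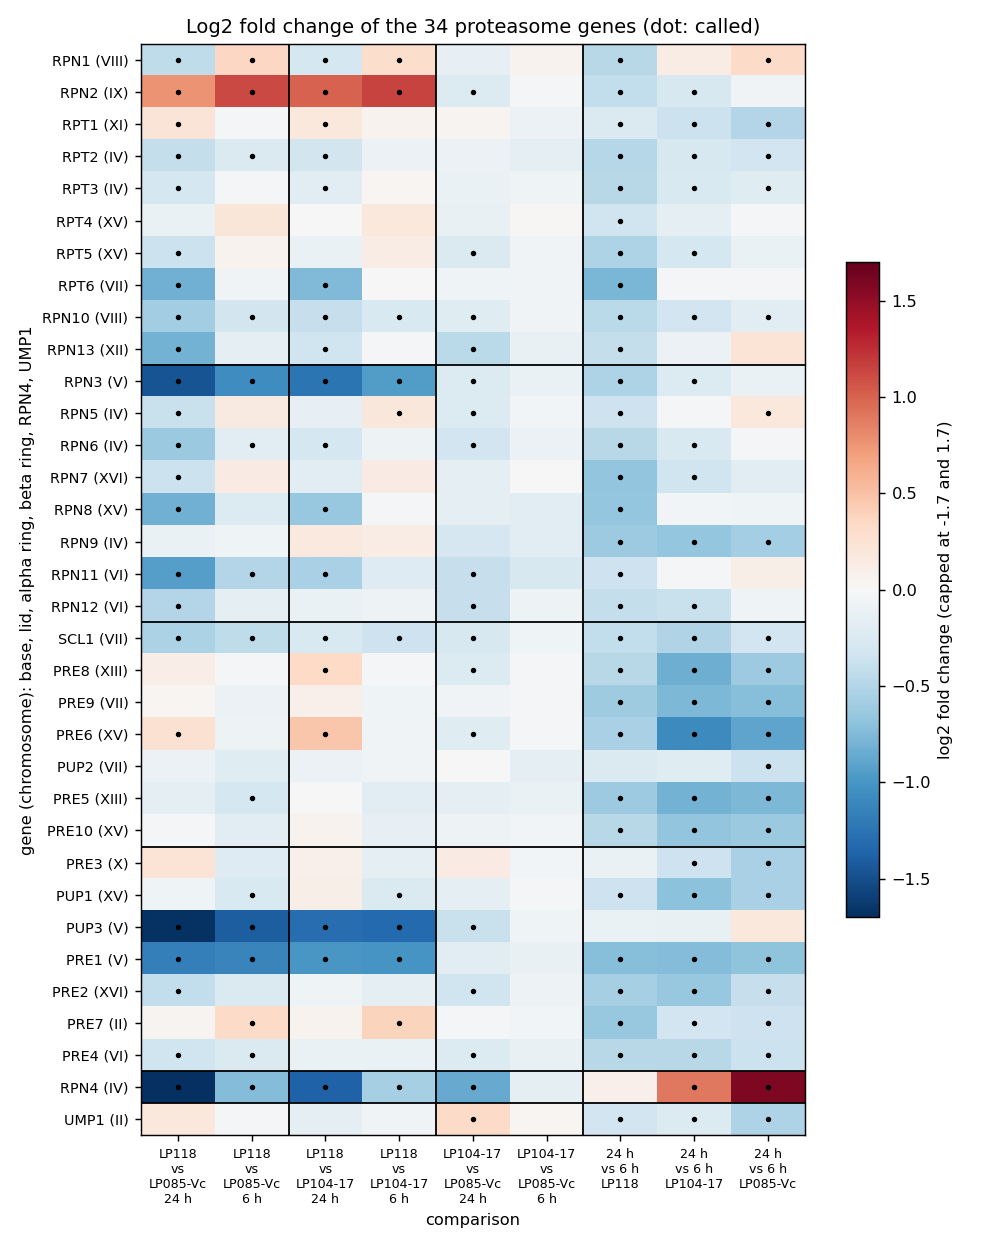
Log2 fold change of each of the 34 members (rows, with the chromosome in brackets) in the 6 comparisons between strains and the 3 comparisons between 24 h and 6 h (columns), in red where higher and blue where lower in the group named first, with colours capped at the largest size shown and a dot where the adjusted p is below 0.05. RPN3, PUP3 and PRE1 are dark blue and RPN2 is red in all 4 columns that compare LP118 with another strain, and the alpha ring rows are blue in all 3 columns of 24 h against 6 h.

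In LP118 the subunit genes on chromosomes V and IX stood apart from the 28 elsewhere. These 4 genes were singled out with this pattern in view, so their contrast with the other subunits is given as a description without a test, and each gene keeps its own adjusted p over all genes. Chromosome V carries RPN3 (YER021W), a lid subunit, and PUP3 (YER094C) and PRE1 (YER012W), which are beta ring subunits without a catalytic site. Chromosome IX carries RPN2 (YIL075C), the scaffold subunit of the base that holds Rpn13. In R64 coordinates RPN3 lies at chrV:196948-198519, PUP3 at chrV:348729-349346, PRE1 at chrV:177835-178431 and RPN2 at chrIX:217863-220700.

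PUP3 had 474, 421 and 417 FPKM in LP118 at 24 h, against 909, 1112 and 1095 FPKM in LP104-17 and 1406, 1127 and 1131 FPKM in LP085-Vc. At 6 h it had 391, 426 and 429 FPKM in LP118, against 1043, 1257 and 1016 FPKM in LP104-17 and 1104, 1215 and 1077 FPKM in LP085-Vc. LP118 lay below both other strains at both times with no overlap. The log2 fold changes were -1.68 ± 0.11 at 24 h and -1.39 ± 0.11 at 6 h against LP085-Vc, and -1.30 ± 0.11 and -1.32 ± 0.11 against LP104-17 (largest adjusted p = 5.59e-09).

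PRE1 had 292, 231 and 261 FPKM in LP118 at 24 h, against 469, 524 and 503 FPKM in LP104-17 and 482, 536 and 515 FPKM in LP085-Vc. At 6 h the values were 406, 362 and 380 FPKM in LP118, 771, 921 and 753 FPKM in LP104-17 and 768, 899 and 927 FPKM in LP085-Vc. LP118 lay below both other strains with no overlap at either time, and its log2 fold changes were -1.16 ± 0.11 at 24 h and -1.12 ± 0.10 at 6 h against LP085-Vc, and -0.98 ± 0.11 and -0.999 ± 0.10 against LP104-17. RPN3 had 158, 152 and 154 FPKM in LP118 at 24 h, against 366, 349 and 340 FPKM in LP104-17 and 365, 381 and 373 FPKM in LP085-Vc. At 6 h it had 210, 192 and 187 FPKM in LP118, against 380, 434 and 399 FPKM in LP104-17 and 407, 437 and 430 FPKM in LP085-Vc. Here too LP118 lay below both other strains with no overlap, with log2 fold changes of -1.47 ± 0.08 at 24 h and -1.06 ± 0.08 at 6 h against LP085-Vc, and -1.24 ± 0.08 and -0.95 ± 0.08 against LP104-17.

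RPN2 moved the other way. It had 326, 360 and 365 FPKM in LP118 at 24 h, against 174, 162 and 167 FPKM in LP104-17 and 180, 174 and 183 FPKM in LP085-Vc. At 6 h it had 442, 397 and 398 FPKM in LP118, against 198, 184 and 212 FPKM in LP104-17 and 201, 178 and 208 FPKM in LP085-Vc. LP118 was above both other strains with no overlap, by log2 0.77 ± 0.08 at 24 h and 1.13 ± 0.08 at 6 h against LP085-Vc, and by 1.01 ± 0.08 and 1.15 ± 0.08 against LP104-17 (largest adjusted p = 5.79e-08).

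Taken over all their tested genes, these chromosomes were shifted in the same direction in LP118. Against LP085-Vc, the median log2 fold change of the tested genes of chromosome V was -1.08 at 24 h and -0.995 at 6 h, and that of chromosome IX was 0.95 and 0.88. Against LP104-17 the medians were -0.98 and -0.98 for chromosome V and 1.02 and 0.92 for chromosome IX. The mean of the 3 chromosome V subunits differed from the median of the 28 subunits elsewhere by -1.09 at 24 h and -1.03 at 6 h against LP085-Vc, and by -1.07 and -1.03 against LP104-17. For RPN2 the difference from the same median was 1.12 and 1.29 against LP085-Vc and 1.12 and 1.21 against LP104-17. In all 4 comparisons each of the 3 chromosome V subunits was below the lowest of the 28, and RPN2 was above the highest. The part that the shift of the whole chromosome had in these values was not tested.

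**Figure D3:**
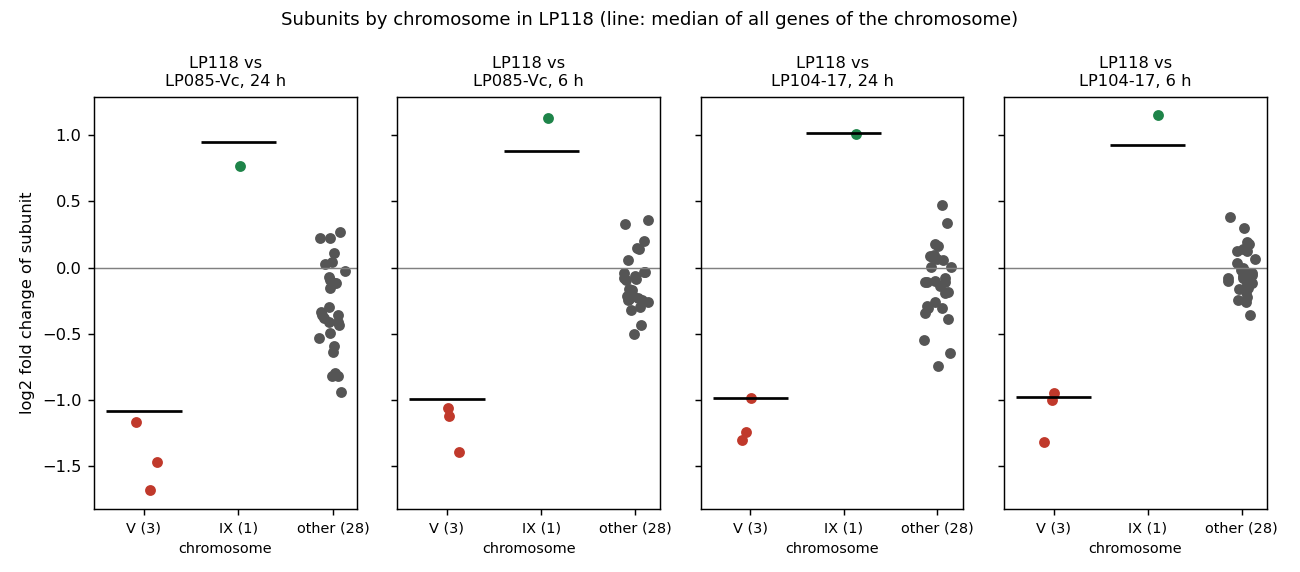
Log2 fold change of each of the 32 subunit genes in LP118 against LP085-Vc and against LP104-17 at 24 h and 6 h, grouped by chromosome, with a black line at the median of all tested genes of chromosome V or IX. The 3 genes on chromosome V lie between -1.68 and -0.95, RPN2 lies between 0.77 and 1.15, and the 28 others lie between -0.94 and 0.48.

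The order of the subunits by FPKM was not the same in LP118 as in the other strains. In LP118 the highest subunit was PUP3 at 24 h, with 437 FPKM, and PRE5 at 6 h, with 465 FPKM. In LP104-17 and LP085-Vc, PUP3 was the most abundant subunit transcript and PRE1 the next, followed by SCL1, at both times. PUP3 averaged 1221 FPKM at 24 h and 1132 FPKM at 6 h in LP085-Vc, and PRE1 511 and 865 FPKM. Relative to the median of the 28 subunits elsewhere, PUP3 stood at 1.84 ± 0.08 in LP118 at 24 h, against 4.18 ± 0.34 in LP104-17 and 4.96 ± 0.66 in LP085-Vc (SD, n = 3 each). RPN2 stood at 1.48 ± 0.13 in LP118, against 0.68 ± 0.05 in LP104-17 and 0.73 ± 0.03 in LP085-Vc. The coefficient of variation of FPKM over the 32 subunits was 30.1% at 24 h and 28.1% at 6 h in LP118, against 55.7% and 52.4% in LP104-17 and 63.4% and 52.8% in LP085-Vc. Over the 28 subunits elsewhere it was 27.3% and 27.5% in LP118, 25.7% and 32.5% in LP104-17 and 27.0% and 32.4% in LP085-Vc. RPN9, of the lid, was the least abundant subunit in 5 of the 6 groups, and RPN1 in LP085-Vc at 6 h. All 32 subunits were above the median of the tested genes in every group.

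With scaled counts, most subunit transcripts fell with time in all 3 strains. In LP118, 30 of the 34 members were called lower at 24 h than at 6 h by edgeR and 0 higher, beside 30.5% lower and 26.6% higher of all tested genes, with a median of -0.47 against -0.05 for all tested genes. DESeq2 also called 0 higher, edgeR had 0 higher at an unadjusted p under 0.05, and limma on FPKM called 1 higher. In LP104-17, 24 were lower and 1 higher, beside 35.7% lower and 35.2% higher, with a median of -0.31. In LP085-Vc, 19 were lower and 3 higher, beside 38.3% lower and 37.9% higher, with a median of -0.27, and the 3 were RPN4, RPN1 and RPN5, of the lid. RPN1 was not called there without replicate 2 or 3 at 6 h or replicate 3 at 24 h, and RPN5 was not called without any 1 of the 6 libraries other than replicate 1 at 24 h. With a trend over gene length removed, the split in LP085-Vc was 13 lower and 6 higher, so most of the 34 members were not called lower. Among all tested genes, 4848 of 6131 were called there with the trend removed, against 4670 with scaled counts alone. The share of members called was below that of all tested genes with the trend removed, at 19 of 34, and also with scaled counts alone, at 22 of 34. Relative to all tested genes the members' median was -0.42, -0.31 and -0.27 in LP118, LP104-17 and LP085-Vc, and with the length trend removed it was -0.41, -0.25 and -0.15.

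The share of core and regulatory subunits called lower was not the same in each strain. In LP085-Vc all 12 core subunits off chromosome V were lower at 24 h, with a median log2 fold change of -0.55, while of the 16 regulatory subunits off chromosomes V and IX 5 were lower and 2 higher, with a median of -0.07. In LP104-17, 11 of the 12 core subunits and 9 of the 16 regulatory subunits were lower, with medians of -0.66 and -0.26. In LP118, 10 of the 12 core subunits and all 16 regulatory subunits were lower, with medians of -0.47 for both. Among all tested genes, 38.3% were called lower in LP085-Vc, 35.7% in LP104-17 and 30.5% in LP118, and 37.9% were called higher in LP085-Vc. The share of regulatory subunits called lower in LP085-Vc was below that of all tested genes, and the other shares called lower were above it. The median of the core minus that of the regulatory subunits was -0.0021 in LP118, -0.40 in LP104-17 and -0.48 in LP085-Vc. The contrast between core and regulatory subunits was chosen after the values were seen, and no test was made over the subunits.

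The ratio of the core to the regulatory median in FPKM gives the same contrast per library. In LP118 it was 1.52, 1.28 and 1.43 at 24 h, against 1.42, 1.43 and 1.48 at 6 h, and the times overlapped. In LP104-17 it was 1.08, 1.08 and 1.11 at 24 h, against 1.53, 1.61 and 1.44 at 6 h. In LP085-Vc it was 1.07, 1.08 and 1.05 at 24 h, against 1.47, 1.49 and 1.54 at 6 h. In both of these strains the times did not overlap, and at 24 h the 3 LP118 libraries lay above all libraries of the other strains. Core genes are shorter, at 705 to 867 bases with a median of 771, than the regulatory genes, at 471 to 2982 bases with a median of 1288.5. With the trend over gene length removed, the core minus regulatory difference was 0.01 in LP118, -0.33 in LP104-17 and -0.39 in LP085-Vc.

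**Figure D4:**
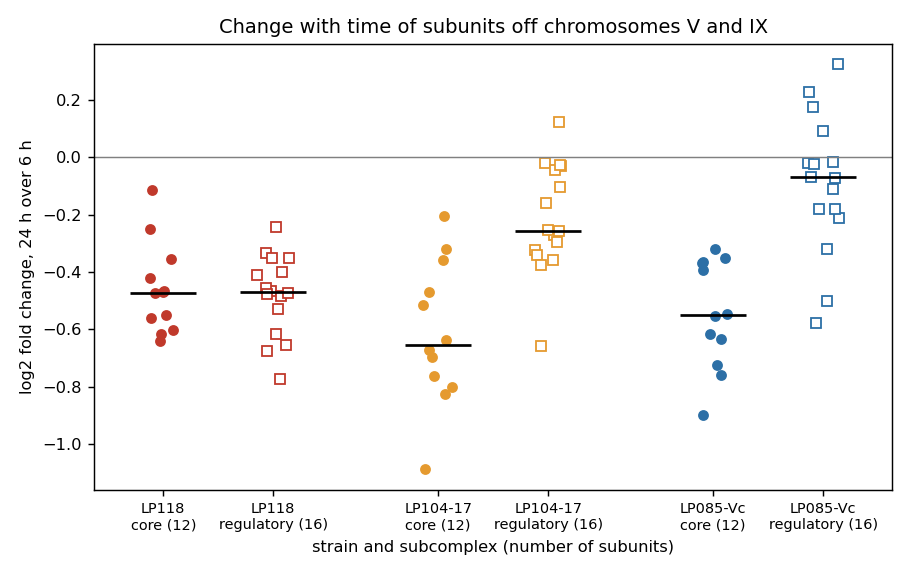
Log2 fold change between 24 h and 6 h of the 12 core subunits (filled circles) and the 16 regulatory subunits (open squares) off chromosomes V and IX in each strain, with a black line at the median. The core and regulatory medians are -0.47 and -0.47 in LP118, -0.66 and -0.26 in LP104-17, and -0.55 and -0.07 in LP085-Vc.

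PRE6 had the deepest fall with time in LP104-17 and in LP085-Vc. It had 320, 281 and 292 FPKM at 24 h in LP118, against 389, 386 and 379 FPKM at 6 h. LP104-17 had 193, 215 and 211 FPKM at 24 h, against 406, 460 and 418 FPKM at 6 h, and LP085-Vc had 222, 207 and 219 FPKM at 24 h, against 403, 430 and 436 FPKM at 6 h. The times did not overlap in any strain, and the log2 fold changes were -0.55 ± 0.08, -1.09 ± 0.08 and -0.90 ± 0.08 in LP118, LP104-17 and LP085-Vc. RPT6 had the deepest fall in LP118, with 215, 192 and 199 FPKM at 24 h against 321, 297 and 296 FPKM at 6 h (-0.77 ± 0.08, adjusted p = 3.2e-07). The other strains showed no call for RPT6, at -0.03 ± 0.08 in LP104-17 and -0.02 ± 0.08 in LP085-Vc, with 298 to 355 and 295 to 344 FPKM over both times.

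The change with time was compared between strains by the interaction terms of the model. For LP118 against LP085-Vc, 17 members had a more negative change in LP118 and 3 a more positive one, beside 29.6% more negative and 30.5% more positive of all tested genes. Of the 17, 13 were among the 16 regulatory subunits off chromosomes V and IX, with a median of -0.43 over the 16, whereas the 12 core subunits had a median of 0.13, with 2 more positive and 1 more negative. RPN1 (-0.79 ± 0.16), RPT6 (-0.75 ± 0.12), RPN13 (-0.64 ± 0.21) and RPN8 (-0.59 ± 0.19) were the lowest after RPN4. PRE3, a catalytic beta subunit, was the highest, at 0.44 ± 0.17 (adjusted p = 0.0283), and was not called without replicate 1 of LP118 at either time, without LP085-Vc replicate 1 at 6 h, or without LP085-Vc replicate 2 or 3 at 24 h. PRE3 had 304, 265 and 263 FPKM at 24 h in LP118, against 224, 263 and 308 FPKM at 6 h, which overlapped, and 220, 200 and 200 FPKM at 24 h in LP085-Vc, against 351, 306 and 297 FPKM at 6 h, which did not. With FPKM this split was turned round, at 4 more negative and 9 more positive, on a scale where the median of all tested genes was 0.23 higher, and with the trend over gene length removed it was 22 more negative and none more positive. Calls among all tested genes were 3595 with FPKM and 4003 with the trend removed, against 3686 with scaled counts alone. Relative to all tested genes the members' median was -0.27 with scaled counts and -0.25 with FPKM.

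For LP118 against LP104-17, 8 members had a more negative change in LP118 and 3 a more positive one, beside 25.3% more negative and 24.5% more positive of all tested genes. The 3 were PRE6 (0.54 ± 0.12), PRE8 (0.35 ± 0.13) and PUP1, a catalytic beta subunit (0.34 ± 0.13), all of the core. The lowest after RPN4 were RPT6 (-0.74 ± 0.12), RPN8 (-0.61 ± 0.19) and RPN1 (-0.59 ± 0.16), all of the regulatory particle. With FPKM the split was 3 more negative and 7 more positive, on a scale where the median of all tested genes was 0.14 higher, and with the length trend removed it was 15 more negative and 2 more positive. Among all tested genes, 3023 were called with FPKM and 3474 with the trend removed, against 3055 with scaled counts alone. Without replicate 1 of LP118 or of LP104-17 at 6 h, 7 members were called in place of 11. PRE8 and PUP1 each lost their call without any 1 of several libraries, which included LP118 replicate 1 at 24 h and LP104-17 replicate 2 at 6 h for both. For LP104-17 against LP085-Vc, RPN4 was the only member called, with a more negative change in LP104-17, beside 15.3% more negative and 17.8% more positive of all tested genes. With the trend over gene length removed, 13 members were called in that comparison, all more negative, and with FPKM 1 was more negative and 2 were more positive. Calls among all tested genes were 2593 with the trend removed and 1837 with FPKM, against 2030 with scaled counts alone. Without LP085-Vc replicate 1 at 6 h, LP104-17 replicate 2 at 6 h or LP104-17 replicate 2 at 24 h, 2 members were called.

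Of 17 genes for factors that assemble the proteasome or bind to it, 9 were lower and 4 higher in LP118 than in LP085-Vc at 24 h, beside 39.2% lower and 38.5% higher of all tested genes, and their median of -0.39 stood beside -0.36 for the 32 subunits. In LP118, 5 of the 17 were lower and 5 higher at 24 h than at 6 h, beside 30.5% lower and 26.6% higher of all tested genes, and their median of -0.05 stood beside -0.47 for the subunits. The difference between the lists was not tested. SPG5, which codes for a regulator of the proteasome in stationary phase, had 239, 204 and 221 CPM at 24 h in LP118, against 108, 97.0 and 94.5 CPM at 6 h. In LP085-Vc it reached 1053, 1109 and 1123 CPM at 24 h, against 115, 128 and 111 CPM at 6 h. SPG5 rose with time in all 3 strains, by log2 1.15 ± 0.10, 3.09 ± 0.10 and 3.21 ± 0.10 in LP118, LP104-17 and LP085-Vc, and at 24 h it was lower in LP118 by -2.31 ± 0.10 against LP085-Vc and -2.10 ± 0.10 against LP104-17. POC4, which codes for a chaperone of alpha ring assembly, was higher in LP118 than in LP085-Vc at 24 h, by 1.91 ± 0.24, at low levels of 23.9, 17.6 and 15.0 CPM in LP118 against 5.72, 4.27 and 4.98 CPM in LP085-Vc. TMA17, a base assembly chaperone gene, was lower in LP118 by -1.19 ± 0.09 at 24 h and -1.90 ± 0.10 at 6 h against LP085-Vc. In LP104-17 TMA17 was lower by -0.75 ± 0.09 at 24 h and -0.39 ± 0.09 at 6 h, where it was the only one of the 17 called.

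Of the list genes on chromosome IX, STS1, needed for nuclear localisation of the proteasome, was higher in LP118 than in LP085-Vc by 0.35 ± 0.09 at 24 h and 1.01 ± 0.09 at 6 h. NAS2, a base assembly chaperone gene on the same chromosome, was lower by -0.52 ± 0.09 at 24 h, and at 6 h it had -0.20 ± 0.09, which was not called (adjusted p = 0.0596). SSM4, a ubiquitin ligase gene of the endoplasmic reticulum on chromosome IX, was higher by 1.52 ± 0.14 and 2.25 ± 0.15. On chromosome V, the genes of the ubiquitin shuttle factors DDI1 and RAD23 were lower in LP118, by -2.12 ± 0.09 and -0.47 ± 0.07 at 24 h and by -1.29 ± 0.09 and -0.60 ± 0.07 at 6 h. NAS2 was on the opposite side from its chromosome's median.

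Among 20 genes for ubiquitin, ubiquitin ligases, shuttle factors and Cdc48 cofactors, 13 were lower and 5 higher in LP118 than in LP085-Vc at 24 h, beside 39.2% lower and 38.5% higher of all tested genes. At 6 h 8 were lower and 5 higher, beside 33.8% lower and 32.2% higher. UBC4 and UBC5 code for a nearly identical pair of ubiquitin-conjugating enzymes, and their reads can be split between them, so their values are uncertain. UBC4 fell with time by -0.61 ± 0.09 in LP118, -2.12 ± 0.09 in LP104-17 and -2.74 ± 0.10 in LP085-Vc, and UBC5 rose by 0.996 ± 0.11, 2.44 ± 0.11 and 2.54 ± 0.11. For both, the change with time was smaller in LP118 than in LP085-Vc, by interaction terms of 2.14 ± 0.13 and -1.55 ± 0.16. Of 7 genes that act on RPN4 or its product, 3 were lower and 3 higher in LP118 than in LP085-Vc at 24 h, with a median of 0.17. YAP1, an activator that binds the RPN4 promoter, was the lowest, with 65.3, 68.9 and 65.9 CPM in LP118 against 362, 354 and 375 CPM in LP085-Vc (-2.45 ± 0.09). PDR3, which codes for an activator of drug resistance genes that also acts on RPN4, was the highest called, at 0.51 ± 0.10. At 6 h YAP1 was lower by -1.73 ± 0.09. PDR1, another activator of RPN4, was higher in LP118 at 6 h by 1.01 ± 0.13 and had 0.17 ± 0.13 at 24 h, which was not called.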

How the data were processed

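RNA was measured by Illumina sequencing in 18 libraries. The deposited tables give, per the file headers, raw read counts per gene and FPKM; the authors aligned with Bowtie2 2.2.5 to R64, per the submitters' processing notes, while the sources used here do not name the counter, annotation or strand setting. The authors' FPKM equal the counts divided by gene length and a library total, within a relative deviation of 3.47e-08.

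The counts went into edgeR 4.0.16 (R 4.3.3) with TMM scaling, filterByExpr (minimum count 10, minimum total 15; 6131 of 6600 genes kept), 6 group means over all 18 libraries, the quasi-likelihood test with 12 residual degrees of freedom and Benjamini-Hochberg adjustment over 6131 genes, called at an adjusted p below 0.05. Comparisons were 6 between strains, 3 between times and 3 interactions. The script was tested on simulated data. Standard errors are model errors on the log2 scale. DESeq2 1.42.0, limma 3.58.1 on log2 FPKM and other settings were alternatives. Identifiers were matched to RefSeq R64 for 5917 of 6600 genes; promoters were searched in python 3.11.15. No member overlaps another matched gene, and overlaps with unmatched identifiers were not checked.

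Members and lists were chosen with earlier results of these data known. All members may be named; per-library values are given for RPN4, UMP1, RPN2, RPN3, PUP3, PRE1 and the members with the largest rise or fall in a comparison, and list genes are named on chromosomes V and IX or where they had the largest called rise or fall at 10 CPM or more. RPN11, PRE3 and other members given in addition were chosen after their values were seen, as was the contrast of core and regulatory subunits.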

Additional observations from a re-analysis of the deposited data

Results flagged for a closer look

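The change of transcript level between 24 h and 6 h differed between strains for 32 combinations of a member and a pair of strains, by the interaction term of the edgeR model at an adjusted p below 0.05. For LP118 against LP085-Vc, 20 of the 34 members were called, beside 3686 of 6131 tested genes. For LP118 against LP104-17 it was 11 members beside 3055 genes, and for LP104-17 against LP085-Vc 1 member beside 2030 genes. The share of members called was near that of all tested genes in the first pair and below it in the others. Each value here is the log2 change with time in the strain named first minus that in the strain named second, and none was tested for a cause.

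For LP118 against LP085-Vc the differences of the base subunits were -0.79 for RPN1, -0.36 for RPN2, 0.26 for RPT1, -0.26 for RPT3, -0.32 for RPT4, -0.42 for RPT5, -0.75 for RPT6, -0.27 for RPN10 and -0.64 for RPN13. Those of the lid were -0.41 for RPN3, -0.53 for RPN5, -0.46 for RPN6, -0.50 for RPN7, -0.59 for RPN8, -0.44 for RPN11 and -0.33 for RPN12. Those of the core were 0.35 for PRE6, 0.44 for PRE3 and -0.29 for PRE7. RPN4 had -1.50. With scaled counts, the called subunits of the regulatory particle differed in 1 direction apart from RPT1, and those of the core in both. The directions depended on the scale. With FPKM, 4 members were more negative and 9 more positive, and with the length trend removed 22 were more negative and 0 more positive. Calls among all tested genes were 3595 and 4003 in these settings.

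For LP118 against LP104-17 the differences were -0.59 for RPN1, -0.74 for RPT6, -0.29 for RPN3, -0.33 for RPN5, -0.34 for RPN7 and -0.61 for RPN8 in the regulatory particle. In the core they were 0.35 for PRE8, 0.54 for PRE6, 0.34 for PUP1 and -0.32 for PRE7. RPN4 had -0.81. For LP104-17 against LP085-Vc RPN4 alone differed, by -0.69. The 3 pairs of strains share libraries, so these values are not independent of each other.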

How the results depend on the processing

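Of the 193 member calls in 12 comparisons, 127 kept their direction and their side of the threshold under all 9 alternatives other than leaving out a library, and 120 also without each library in turn. The 193 calls are among 408 pairs of a member and a comparison. Among all tested genes, 708 to 4762 of 6131 were called per comparison, and the share of those calls that was kept is not given here. The alternatives were DESeq2, other size factors, TMM without chromosomes V and IX, no filter on low counts, a fit of the compared groups alone, the replicate block, limma on log2(FPKM + 1) and on log2(FPKM + 0.1), and removal of a trend over coding length. With the length trend removed, 2 values changed sign: PRE9 in LP118 against LP085-Vc at 24 h had -0.16, in place of 0.03, and RPN10 for 24 h against 6 h in LP085-Vc had 0.036, in place of -0.18. The cause was not tested.

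Calls among all tested genes changed with the setting as well. Between LP104-17 and LP085-Vc at 24 h, 3222 became 2949 with FPKM and 3723 with the length trend removed. At 6 h, 708 became 991 with the trend removed. For the interaction of these strains, 2030 became 2593 with the trend removed. For that of LP118 and LP085-Vc, 3686 became 3595 with FPKM, and for that of LP118 and LP104-17, 3055 became 3474 with the trend removed. Each of these moves was under 1.5 times. Counts of called members moved by over 1.5 times in 5 comparisons. For LP104-17 against LP085-Vc at 6 h, 0 became 1 with the length trend removed and 0 to 3 without 1 library. At 24 h, 17 became 7 with FPKM (7 with the smaller pseudocount), 29 with the length trend removed and 9 to 14 without 1 library. For the interaction of these strains, 1 became 2 with DESeq2, 3 with FPKM (3 with the smaller pseudocount), 13 with the length trend removed and 1 to 2 without 1 library. For the interaction of LP118 and LP085-Vc, 20 became 13 with FPKM (13 with the smaller pseudocount). For that of LP118 and LP104-17, 11 became 7 with the compared groups alone, 17 with the length trend removed and 7 to 11 without 1 library.

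The difference of the chromosome V subunits from those elsewhere ran from -1.06 to -1.02 at 6 h and from -1.15 to -1.05 at 24 h against LP085-Vc without 1 library, and was -1.03 against LP104-17 at 24 h with the length trend removed. With the trend removed, RPN2 differed at 6 h by 0.893 against LP085-Vc and 1.0 against LP104-17. The core minus regulatory difference over time in LP085-Vc was -0.39 with the trend removed, and in LP104-17 it ran from -0.48 to -0.29 without 1 library, with -0.29 without LP104-17 replicate 2 at 6 h.

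Replicate numbers are shared by all groups. The deviations of same-numbered libraries from their group means had correlations of -0.401 to 0.659 over 45 pairs, of which 10 were over 0.1. The highest were 0.659 for replicate 2 and 0.454 for replicate 1 between LP085-Vc and LP104-17 at 6 h, where replicate 3 had -0.321. These correlations cannot tell if same-numbered libraries of some groups share a culture or batch. With the replicate as a block, 15 in place of 17 members were called between LP104-17 and LP085-Vc at 24 h and 17 in place of 20 for the interaction of LP118 and LP085-Vc.

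The FPKM scale moved the median of all tested genes by 0.10 to 0.23 in 6 comparisons (log2(FPKM + 1)), and the members' median relative to it moved by less in each. For the interaction of LP118 and LP085-Vc it was -0.25, in place of -0.27. Depth was 5117869 to 7548113 counts a library.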

Other observations

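Outside the proteasome, 45 tested genes with an exact GGTGGCAAA match within 300 bases before the start codon were measured. Between 24 h and 6 h, their median log2 change was -0.06 in LP118, with 14 lower and 9 higher (beside 30.5% and 26.6% of all tested genes), -0.06 in LP104-17, with 17 lower and 16 higher (beside 35.7% and 35.2%), and 0.12 in LP085-Vc, with 18 lower and 19 higher (beside 38.3% and 37.9%). The shares called lower were near those of all tested genes. In LP118 against LP085-Vc at 24 h their median was -0.31, with 21 lower and 13 higher (beside 39.2% and 38.5% of all tested genes). The same median was -0.34 for the 23 subunits with a match off chromosomes V and IX. No test of the difference between these lists was made.

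LP118 replicate 1 at 24 h had the highest level of its group for 27 of the 34 members, and LP104-17 replicate 2 at 6 h for 26 of the 34.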
